A study of Mus musculus with 6 samples.

Results

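The genes described here are 10 genes of the Notch pathway in mouse hair follicle cells: the receptors Notch1, Notch2 and Notch3, the ligands Jag1, Jag2 and Dll1, and the transcriptional targets Hes1, Hes5, Hey1 and Hey2. Every array feature (probe set) whose annotated symbol was one of these names was taken, which gave 17 probe sets of 45037 on the array other than controls, and 10 genes of 18193 tested. All 10 genes were measured, and no filter on low values was applied. RNA came from sorted back skin cells of female, untreated CD-1 mice, and 6 arrays fell into 3 groups of 2. HF-TACs are the transient-amplifying cells of the hair matrix, the fast-dividing progeny that build the hair, sorted at postnatal days 28 to 30 with GFP, integrin α6 and ephrinB1. The aHF-SC group held activated hair follicle stem cells of the bulge, sorted at postnatal days 28 to 30 with GFP, integrin α6 and CD34. The qHF-SC group held quiescent hair follicle stem cells, sorted at postnatal days 52 to 60 with integrin α6 and CD34. What carried the GFP is not named in the labels, nor whether the 2 arrays of a group came from separate animals, so p-values measure only the spread between these samples. Age and sorting scheme differ between the qHF-SC group and both other groups and cannot be told apart there from the cell state.

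Notch receptors are cell surface proteins that are bound by Jagged or Delta-like ligands on a neighbouring cell. Binding leads to cleavage by ADAM10 and then by gamma-secretase, and the released intracellular part joins the DNA-binding protein RBPJ and Mastermind coactivators in the nucleus, where Hes and Hey genes, which encode basic helix-loop-helix repressors, are classic targets. In the hair follicle the pathway is known for its part in the differentiation of matrix progeny, mainly in the inner root sheath and hair shaft lineages.

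The promoters of 3 members are shown because Hes5 and Hey2 hold the core letters that RBPJ binds, while Notch3 is the member with the largest range of values between the groups. RefSeq promoters (GRCm38.p6) were listed for 8 of the 10 genes, as 9 promoters, and the 250 bases before each start were searched for GTGGGAA on both strands (TTCCCAC on the other strand). These 7 letters were present in 2 of the 9 promoters, in Hes5 and in Hey2, against 5.42% of all 32851 promoters of the same length. Each sequence below runs 5′ to 3′ on the strand of its gene, and capitals mark the motif.
Hes5, chr4:154960673-154960922, plus strand: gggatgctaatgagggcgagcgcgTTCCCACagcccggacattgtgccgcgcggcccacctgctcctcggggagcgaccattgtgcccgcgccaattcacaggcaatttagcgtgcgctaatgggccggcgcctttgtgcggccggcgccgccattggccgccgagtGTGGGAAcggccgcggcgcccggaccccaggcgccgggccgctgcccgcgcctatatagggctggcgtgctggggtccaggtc
Hey2, chr10:30842784-30843033, minus strand: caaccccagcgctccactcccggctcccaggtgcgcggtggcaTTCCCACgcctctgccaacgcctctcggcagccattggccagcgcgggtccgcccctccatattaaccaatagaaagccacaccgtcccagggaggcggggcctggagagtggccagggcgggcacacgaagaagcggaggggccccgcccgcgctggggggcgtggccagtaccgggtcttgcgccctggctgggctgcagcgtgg
Notch3, chr17:32166891-32167140, minus strand: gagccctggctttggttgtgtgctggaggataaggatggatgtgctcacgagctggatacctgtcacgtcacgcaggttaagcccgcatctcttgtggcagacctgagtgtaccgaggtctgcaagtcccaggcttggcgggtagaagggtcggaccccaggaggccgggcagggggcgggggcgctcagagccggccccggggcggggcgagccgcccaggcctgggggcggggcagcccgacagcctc
In Hes5 the motif began 226 bases before the start on the opposite strand and 83 bases before it on the strand of the gene, and in Hey2 it began 207 bases before the start on the opposite strand. The Notch3 window does not hold these letters. The array values of Hes5 and Hey2, given below, did not separate the groups by the test.

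Values are probe set intensities on a linear scale, which carry no read depth; the 2 arrays of a group limit their precision. Replicate arrays correlated at 0.9885 in HF-TACs, 0.9911 in aHF-SCs and 0.9915 in qHF-SCs (Pearson, log2 intensity over 18193 genes), and 454, 215 and 202 genes differed over 2-fold between the arrays of a group. Among the 10 genes, only Notch1 in HF-TACs did so. A list of 18 genes not expected in skin had array medians of 14.5 to 16.3, and 16.3 was taken as the level under which a value was called dim. The 90th percentile of that list reached 56.1, so values between 16.3 and 56.1 were also within its range. The sorting marker Cd34 was at 15.3 and 25.7 in HF-TACs, against 2380 and 3250 in aHF-SCs and 7190 and 8560 in qHF-SCs, and the median of 8 bulge stem cell genes was 196 to 252 in HF-TACs, against 1420 to 1600 in aHF-SCs and 1250 to 1630 in qHF-SCs. The median of 8 matrix and hair lineage genes was 480 to 864 in HF-TACs, against 59.5 to 92.4 in aHF-SCs and 50.4 to 63 in qHF-SCs. Of the other sorting markers, Itga6 was at 1070 and 854 in HF-TACs, 2770 and 2280 in aHF-SCs, and 2810 and 2120 in qHF-SCs. Efnb1 was at 845 and 1010, 727 and 795, and 581 and 421 in the same order. Its log2 difference between HF-TACs and aHF-SCs was 0.28, which did not pass the test described below. Cd34 and the bulge and matrix lists thus set HF-TACs apart from both stem cell groups. Between aHF-SCs and qHF-SCs, 0 of the bulge and matrix genes passed that test. HF-TAC array 2 had higher medians than HF-TAC array 1 for matrix (864 against 480), inner root sheath (871 against 415) and hair shaft genes (320 against 114).

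Notch3 was the member that separated the 3 populations most clearly: it was higher in HF-TACs than in either stem cell group, and higher in aHF-SCs than in qHF-SCs. Its brightest probe set is of a kind that can match several transcripts. With such probe sets left out, Notch3 passed between HF-TACs and qHF-SCs but in neither of the other comparisons. Hes1 was 3.17-fold higher in HF-TACs than in qHF-SCs. The ligand Jag1 was 1.88-fold lower in HF-TACs than in qHF-SCs by its brightest probe set. Its other probe sets did not pass there, with log2 differences of -0.29 and 0.02, nor did the mean of its probe sets (-0.4, limma adjusted p = 0.444). The other 7 genes, each by its brightest probe set, passed the test in no comparison. Each difference was tested with limma on log2 intensity over all 18193 genes, and an adjusted p (Benjamini-Hochberg) under 0.05 was taken as passing. An exact permutation of 2 arrays against 2 cannot give a two-sided p under 0.333, so no such test is given for single genes.

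**Figure D1:**
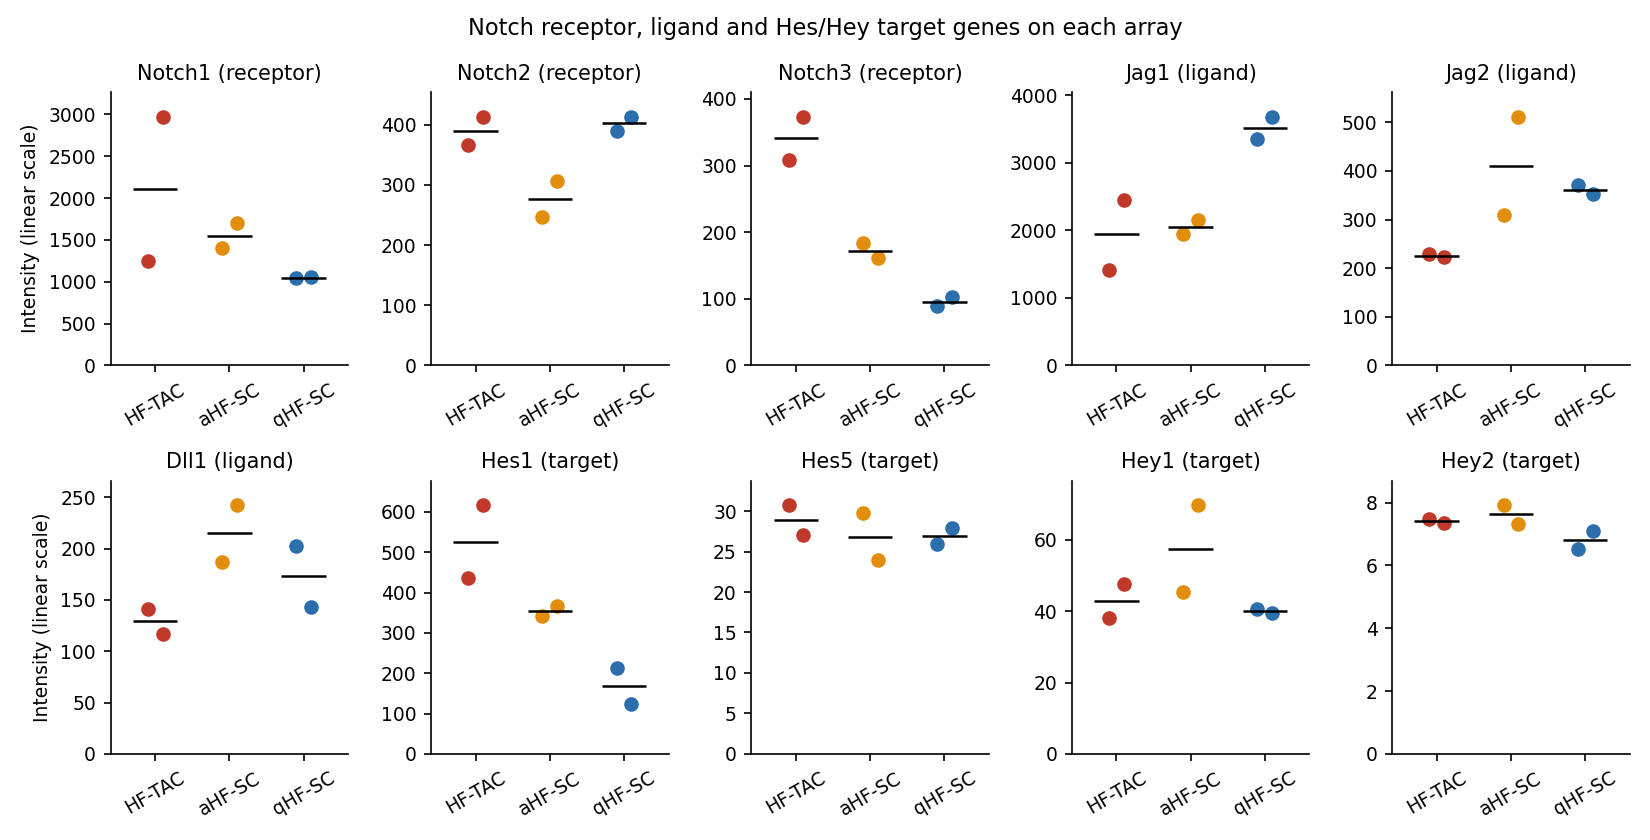
Intensity (linear scale) of the 10 Notch genes, 1 panel a gene, with 1 point for each array and a bar at the group mean (n = 2 arrays). Panels have different vertical scales because levels of different probe sets are not comparable. The Notch3 arrays do not overlap between any of the groups, at 309 and 373 in HF-TACs, 183 and 161 in aHF-SCs, and 88.8 and 102 in qHF-SCs, while the Notch1 arrays of HF-TACs stand at 1250 and 2970.

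Between HF-TACs and aHF-SCs, 1 of the 10 genes was higher (Notch3) and 0 were lower, against 8.97% of all genes higher and 8.57% lower, so 1 of 10 is near the background. Under an unadjusted p of 0.05 there were 4 of 10, and 5277 of the 18193 genes. Between HF-TACs and qHF-SCs, 2 were higher (Notch3 and Hes1) and 1 was lower (Jag1), where 13.4% of all genes were higher and 12.9% lower. Between aHF-SCs and qHF-SCs, 1 was higher (Notch3) and 0 were lower, where 3.07% of all genes were higher and 3.21% lower. The median difference of the 10 genes was 0.04, 0.10 and 0.24 on the log2 scale in these comparisons, in the same order, and that of all genes was -0.01, -0.01 and 0. The comparisons share arrays, since each group enters 2 of them.

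For 5 of the 10 genes both HF-TAC arrays lay above, or both below, the 2 aHF-SC arrays, where 54.3% of all genes were apart in this way. The number was 7 of 10 between HF-TACs and qHF-SCs, against 61.2% of all genes, and 7 of 10 between aHF-SCs and qHF-SCs, against 50.8%. With 2 arrays a group, separated arrays were thus common among all genes.

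Among the receptors, Notch3, a paralog best known from the mural cells of vessels and also present in epithelia, had intensities of 309 and 373 in HF-TACs, against 183 and 161 in aHF-SCs and 88.8 and 102 in qHF-SCs. No arrays of different groups overlapped, and the order of the group means was HF-TAC, aHF-SC, qHF-SC (341 ± 45.3, 172 ± 16.1 and 95.2 ± 9, SD, n = 2 each). Notch3 was 1.98-fold higher in HF-TACs than in aHF-SCs (log2 difference 0.98 ± 0.17 SE, limma adjusted p = 0.00841) and 3.57-fold higher in HF-TACs than in qHF-SCs (1.84 ± 0.17, adjusted p = 0.000392). It was 1.81-fold higher in aHF-SCs than in qHF-SCs (0.85 ± 0.17, adjusted p = 0.0343). The other Notch3 probe set kept the order of the groups, with means of 39.7 in HF-TACs, 29.5 in aHF-SCs and 20.3 in qHF-SCs. Its values, 18.8 to 43.9 over all arrays, lay within the range of the list not expected in skin. Its log2 difference was 0.96 between HF-TACs and qHF-SCs (limma adjusted p = 0.00585 over all probe sets), 0.42 between HF-TACs and aHF-SCs (adjusted p = 0.186) and 0.54 between aHF-SCs and qHF-SCs (adjusted p = 0.131), so the HF-TAC against qHF-SC difference was the one that passed with both. In RNA of a sorted population, fewer cells with a transcript and less of it per cell cannot be told apart. The HF-TAC against qHF-SC difference passed with each of the 6 arrays left out in turn; the HF-TAC against aHF-SC difference did not pass without aHF-SC replicate 2 (0.89, adjusted p = 0.0587), nor the aHF-SC against qHF-SC difference without qHF-SC replicate 1 (0.76, adjusted p = 0.16), qHF-SC replicate 2 (0.95, 0.138), aHF-SC replicate 1 (0.76, 0.154) or aHF-SC replicate 2 (0.95, 0.0897).

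Markers of other cell types were read beside Notch3. The median of 6 mural cell genes was 24.6 to 28 in HF-TACs, 27.7 to 27.9 in aHF-SCs and 27.9 to 30 in qHF-SCs, and their sum was 199 to 217, 607 to 729 and 694 to 798 in the same order, so the medians overlapped and the sum was lowest in HF-TACs. None of the 6 was higher in HF-TACs than in the stem cells, and 1, Cspg4, was lower (84.3 and 81.8 in HF-TACs, against 477 and 591 in aHF-SCs and 575 and 670 in qHF-SCs). Of the 6 mural genes, 3 were dim in every group: over all arrays Rgs5 was at 6.71 to 11.6, Abcc9 at 9.8 to 13.3 and Kcnj8 at 14.7 to 16.5. Above the dim level, Pdgfrb was at 34 to 45.4 and Des at 44 to 60.4. The median of 9 endothelial genes was 12.5 to 13.9 in HF-TACs, 19 to 19.6 in aHF-SCs and 15.3 to 16.8 in qHF-SCs, and their sum was 200 to 222, 224 to 228 and 196 to 202. Of these 9 genes, 6 were dim in HF-TACs, 4 in aHF-SCs and 5 in qHF-SCs, Pecam1 and Tie1 among them in every group. Tek was at 9.49 and 7.72 in HF-TACs, 24.5 and 31.6 in aHF-SCs, and 8.28 and 7.81 in qHF-SCs, and passed as higher in aHF-SCs than in qHF-SCs (limma adjusted p = 0.00504). Of 7 melanocyte genes, 3 were higher (Dct, Tyr and Mlana) and 1 was lower (Mitf) in HF-TACs than in qHF-SCs. Dct followed the order of Notch3, at 316 and 373 in HF-TACs, 179 and 217 in aHF-SCs, and 120 and 72.3 in qHF-SCs. The list's sum was 562 to 741, 485 to 556 and 1830 to 2010 in the same order. Most of the qHF-SC sum was Mitf, at 93.6 and 78.3 in HF-TACs, 175 and 175 in aHF-SCs, and 1580 and 1800 in qHF-SCs. Of 6 dermal fibroblast genes, Dcn alone was higher in HF-TACs than in either stem cell group. It was at 3650 and 5930 in HF-TACs, 53.2 and 86.8 in aHF-SCs, and 28.8 and 16.6 in qHF-SCs. Col1a2 was lower in HF-TACs than in qHF-SCs, at 61.1 and 157 in HF-TACs, 133 and 173 in aHF-SCs, and 278 and 381 in qHF-SCs. The list's sum was 3800 to 6320, 372 to 646 and 422 to 529 in the same order, and most of the HF-TAC sum was Dcn. Of 7 dermal papilla genes, Prom1 alone was higher in HF-TACs than in either stem cell group. It was at 74.5 and 54 in HF-TACs, 17.2 and 17.2 in aHF-SCs, and 15.6 and 18 in qHF-SCs. Hhip was lower in HF-TACs than in either stem cell group, at 9.3 and 12.3 in HF-TACs, 31.6 and 23.4 in aHF-SCs, and 37.3 and 40.5 in qHF-SCs. The sum of the dermal papilla list was 246 to 338, 132 to 228 and 164 to 229 in the same order. None of 7 immune genes passed in any comparison. The median of 8 differentiated keratinocyte genes was 1800 to 2220 in HF-TACs, 1060 to 1080 in aHF-SCs and 3540 to 3870 in qHF-SCs. Of these 8, 4 were higher and 1 was lower in HF-TACs than in aHF-SCs, and 1 was higher and 1 lower than in qHF-SCs. Between aHF-SCs and qHF-SCs, 0 of the 8 were higher and 3 were lower. The part of these genes in the Notch3 and Hes1 results was not tested. Cell division genes moved in the order of Notch3: the median of 7 of them was 1440 to 1680 in HF-TACs, 187 to 396 in aHF-SCs and 21.8 to 45.7 in qHF-SCs, and 7 of 7, 7 of 7 and 6 of 7 passed as higher in the 3 comparisons. The sum of the division list was 10200 to 12100, 1380 to 2950 and 232 to 303 in the same order, and its part in the Notch3 result was not tested. Inner root sheath genes followed the same order, with a median over 7 genes of 415 to 871 in HF-TACs, 82.1 to 100 in aHF-SCs and 22.7 to 24.9 in qHF-SCs, and 6, 6 and 3 of the 7 passed as higher in the 3 comparisons. Their part was not tested either.

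Notch1, the receptor most studied in epidermal and hair differentiation, had intensities of 1250 and 2970 in HF-TACs, 1400 and 1700 in aHF-SCs, and 1040 and 1060 in qHF-SCs. The HF-TAC arrays differed by 1.25 on the log2 scale and enclosed both aHF-SC arrays, while every HF-TAC and aHF-SC array was above both qHF-SC arrays. HF-TAC replicate 2, the higher one, was also the higher one for the matrix, inner root sheath and hair shaft medians given above, whose part in the Notch1 values was not tested. The log2 difference was 0.87 ± 0.36 (SE) between HF-TACs and qHF-SCs, with a 95% interval of 0.02 to 1.73 and a limma adjusted p of 0.131, and 0.55 ± 0.36 between aHF-SCs and qHF-SCs (adjusted p = 0.478). The second probe set had means of 379 in HF-TACs, 282 in aHF-SCs and 190 in qHF-SCs, and its HF-TAC against qHF-SC difference of 0.94 passed (limma adjusted p = 0.0421 over all probe sets). Which HF-TAC array was kept decided the HF-TAC against aHF-SC value: 0.32 ± 0.36 with both, 0.94 (adjusted p = 0.0258) without HF-TAC replicate 1 and -0.30 without HF-TAC replicate 2. The HF-TAC against qHF-SC difference was likewise 1.5 (limma adjusted p = 0.00331) without HF-TAC replicate 1 and 0.25 (adjusted p = 0.494) without HF-TAC replicate 2.

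Notch2, a receptor with wide expression in epithelia, had intensities of 366 and 413 in HF-TACs, 246 and 306 in aHF-SCs, and 390 and 413 in qHF-SCs. The aHF-SC arrays were the lowest, and HF-TACs and qHF-SCs overlapped. The log2 difference was 0.50 ± 0.17 (SE) between HF-TACs and aHF-SCs (limma adjusted p = 0.092), -0.05 ± 0.17 between HF-TACs and qHF-SCs (95% interval -0.45 to 0.35) and -0.55 ± 0.17 between aHF-SCs and qHF-SCs (adjusted p = 0.119). The second Notch2 probe set gave another order, with means of 35.4 in HF-TACs, 40.9 in aHF-SCs and 42.4 in qHF-SCs, and it passed in no comparison.

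**Figure D2:**
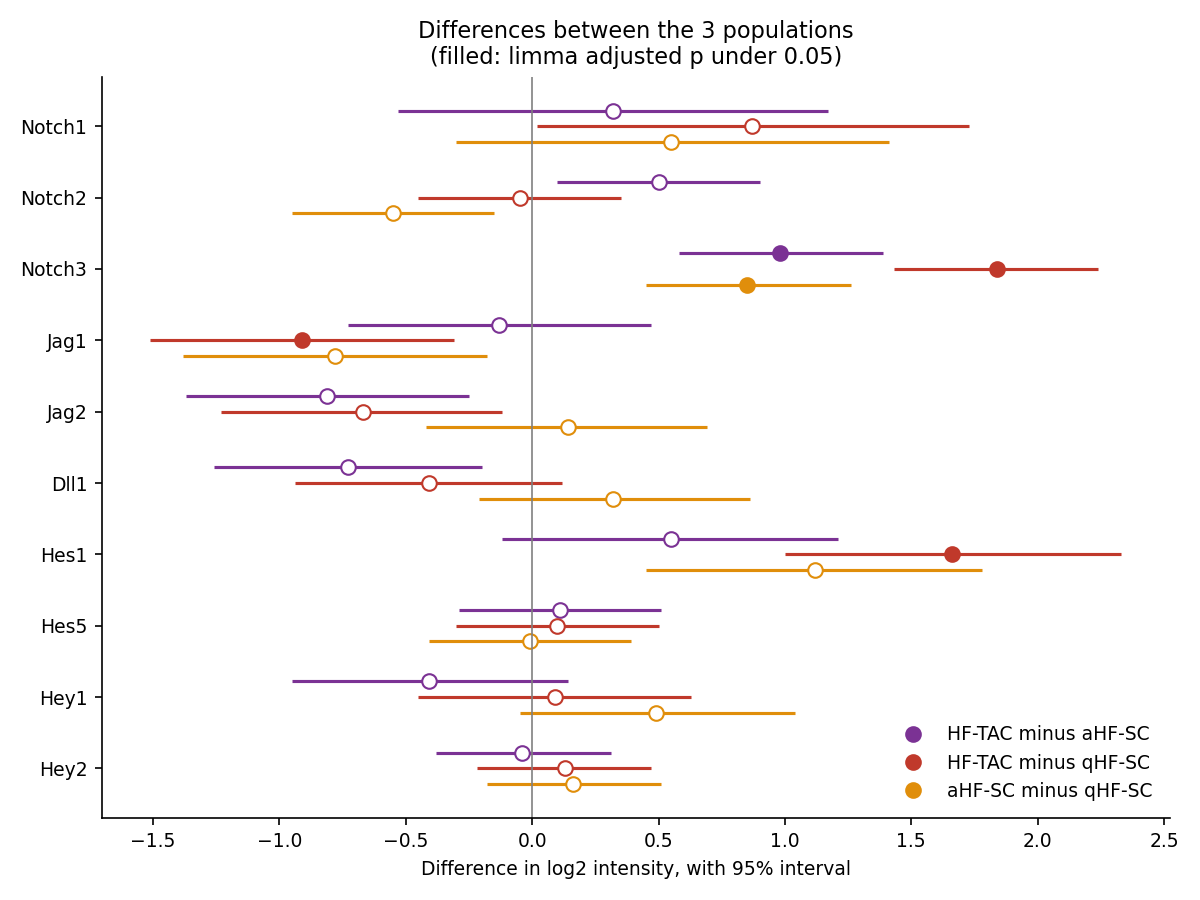
Differences in log2 intensity of the 10 genes between HF-TACs and aHF-SCs, HF-TACs and qHF-SCs, and aHF-SCs and qHF-SCs, with unadjusted 95% intervals from limma; filled points passed an adjusted p of 0.05. Notch3 has filled points in all 3 comparisons (0.98, 1.84 and 0.85), Hes1 and Jag1 between HF-TACs and qHF-SCs (1.66 and -0.91), and the other 7 genes have none.

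Among the ligands, Jag1, which signals to Notch on neighbouring cells, had intensities of 1420 and 2450 in HF-TACs, 1940 and 2160 in aHF-SCs, and 3350 and 3680 in qHF-SCs. Both qHF-SC arrays were above every other array, and the HF-TAC arrays enclosed the aHF-SC arrays. Jag1 was 1.88-fold lower in HF-TACs than in qHF-SCs (log2 difference -0.91 ± 0.25 SE, limma adjusted p = 0.0358); the difference between aHF-SCs and qHF-SCs was -0.78 ± 0.25 (adjusted p = 0.135), and that between HF-TACs and aHF-SCs was -0.13 ± 0.25 (95% interval -0.73 to 0.47). The other 2 Jag1 probe sets did not show this: their HF-TAC against qHF-SC differences were -0.29 (means of 299 in HF-TACs, 248 in aHF-SCs and 328 in qHF-SCs) and 0.02 (means of 61.5, 52.9 and 59), and neither passed. With all 3 probe sets averaged the HF-TAC against qHF-SC difference was -0.40 (limma adjusted p = 0.444), and with an array left out it passed only without HF-TAC replicate 2 (adjusted p = 0.00521), at -0.98 without qHF-SC replicate 1 (0.105), -0.84 without qHF-SC replicate 2 (0.161), -0.91 without either aHF-SC replicate (0.0555) and -0.52 without HF-TAC replicate 1 (0.11).

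Jag2, the other Jagged ligand, had intensities of 230 and 222 in HF-TACs, 309 and 511 in aHF-SCs, and 371 and 352 in qHF-SCs. Both HF-TAC arrays were below every stem cell array, and the aHF-SC arrays enclosed the qHF-SC arrays. The log2 difference was -0.81 ± 0.24 (SE) between HF-TACs and aHF-SCs (limma adjusted p = 0.0569) and -0.67 ± 0.24 between HF-TACs and qHF-SCs (adjusted p = 0.0796), just short of the threshold, and 0.14 ± 0.24 between aHF-SCs and qHF-SCs. The second Jag2 probe set, with means of 209 in HF-TACs, 387 in aHF-SCs and 268 in qHF-SCs, passed between HF-TACs and aHF-SCs (-0.86 ± 0.21, limma adjusted p = 0.0367 over all probe sets). Without aHF-SC replicate 1 the HF-TAC against aHF-SC difference was -1.17 (adjusted p = 0.0121) and without aHF-SC replicate 2 it was -0.45 (adjusted p = 0.217), and without either aHF-SC replicate the HF-TAC against qHF-SC difference was -0.67 (adjusted p = 0.0219).

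Dll1, a Delta-like ligand, had 1 probe set, with intensities of 141 and 117 in HF-TACs, 187 and 242 in aHF-SCs, and 202 and 143 in qHF-SCs. The HF-TAC arrays were again the lowest, by a small gap to qHF-SC replicate 2. Its log2 difference was -0.73 ± 0.23 (SE) between HF-TACs and aHF-SCs (limma adjusted p = 0.0695), -0.41 ± 0.23 between HF-TACs and qHF-SCs (adjusted p = 0.255) and 0.32 ± 0.23 between aHF-SCs and qHF-SCs (adjusted p = 0.517). By their brightest probe sets, all 3 ligands had negative differences between HF-TACs and aHF-SCs and 0 passed; the other 2 Jag1 probe sets were positive there (0.19 and 0.16), and the Jag1 difference turned to 0.26 without HF-TAC replicate 1. Between HF-TACs and qHF-SCs the brightest probe sets of all 3 had negative differences and 1 passed.

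Among the targets, Hes1, a repressor that is a direct Notch target in many tissues and is also induced by other signals, had intensities of 435 and 616 in HF-TACs, 341 and 367 in aHF-SCs, and 214 and 125 in qHF-SCs. No arrays of different groups overlapped, and the group means ran 525 ± 128 in HF-TACs, 354 ± 18.3 in aHF-SCs and 169 ± 63.3 in qHF-SCs (SD, n = 2 each). Hes1 was 3.17-fold higher in HF-TACs than in qHF-SCs (log2 difference 1.66 ± 0.28 SE, limma adjusted p = 0.00474), and this difference passed with each of the 6 arrays left out (1.27 to 2.05). The difference was 1.12 ± 0.28 between aHF-SCs and qHF-SCs (adjusted p = 0.0673) and 0.55 ± 0.28 between HF-TACs and aHF-SCs (adjusted p = 0.265). The aHF-SC against qHF-SC difference passed without qHF-SC replicate 1 (1.51, adjusted p = 0.0381) and was 0.72 (adjusted p = 0.304) without qHF-SC replicate 2; it passed with none of the other arrays left out. Genes induced by cell dissociation stress were also lowest in qHF-SCs: the median of 10 of them was 3010 to 3580 in HF-TACs, 4120 to 8510 in aHF-SCs and 830 to 939 in qHF-SCs, and their sum was 44800 to 51200, 64000 to 96700 and 20400 to 26400. Of these 10, 9 passed as higher in HF-TACs than in qHF-SCs and 9 as higher in aHF-SCs than in qHF-SCs. Between HF-TACs and aHF-SCs 0 passed in either direction, but all 10 had negative log2 differences, from -0.4 (Nr4a1) to -1.07 (Fosb). Their part in the Hes1 result was not tested.

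**Figure D3:**
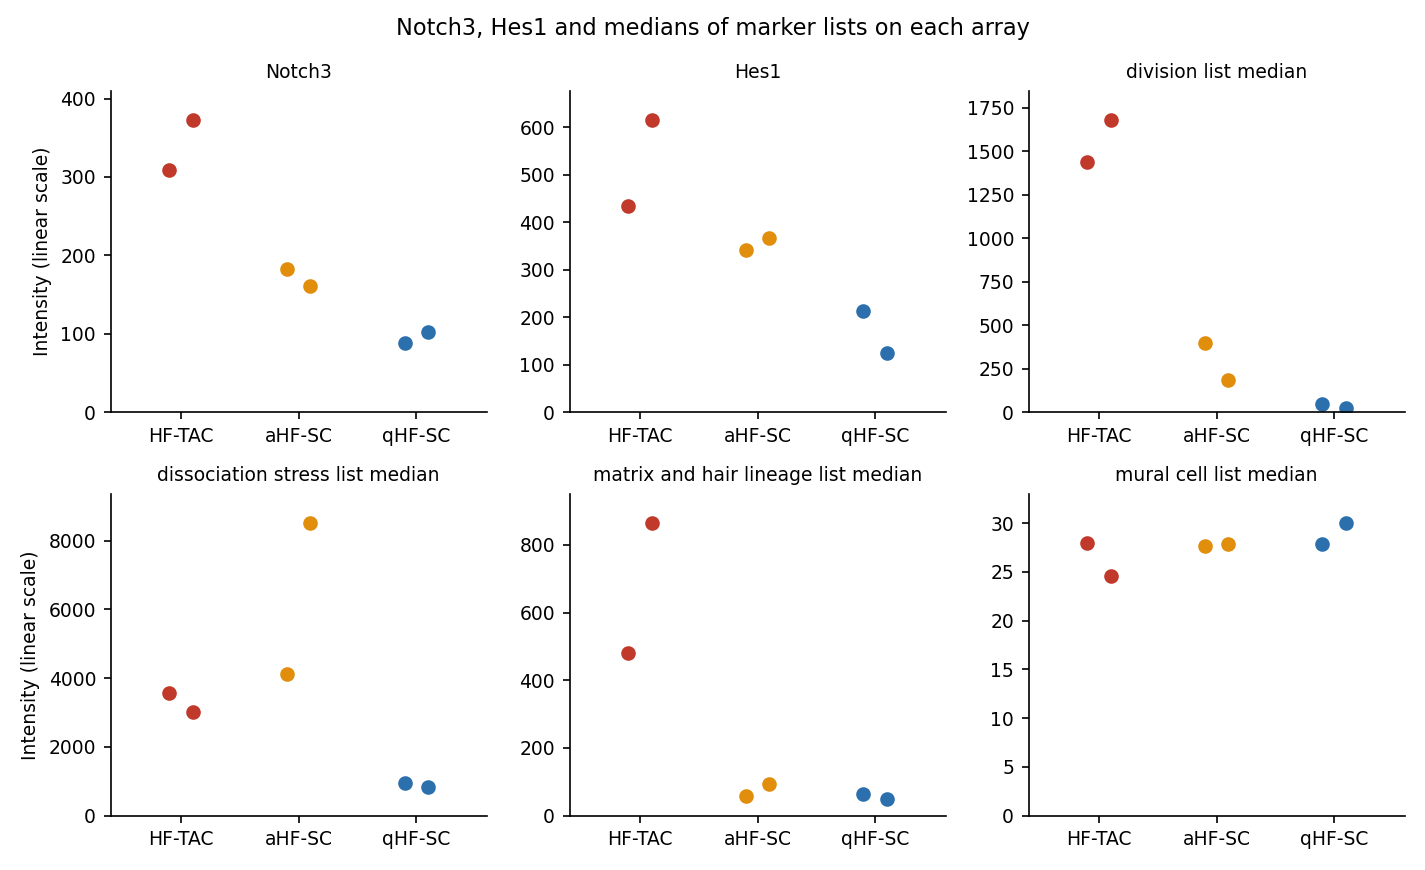
Intensity (linear scale) of Notch3 and Hes1 and the median intensity of 4 marker lists, with 1 point for each array (2 arrays a group). Notch3, Hes1 and the division list fall in the order HF-TAC, aHF-SC, qHF-SC, the stress list is highest in aHF-SCs at 4120 and 8510, and the mural cell list lies between 24.6 and 30 on all arrays.

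Hes5, a target best known from neural progenitors, had intensities of 30.7 and 27.1 in HF-TACs, 29.7 and 24 in aHF-SCs, and 25.9 and 27.9 in qHF-SCs, and all groups overlapped. Its log2 differences had 95% intervals of -0.29 to 0.51 between HF-TACs and aHF-SCs, -0.30 to 0.50 between HF-TACs and qHF-SCs, and -0.41 to 0.39 between aHF-SCs and qHF-SCs. The second Hes5 probe set was under the dim level in all 3 groups, with means of 8.68, 8.58 and 9.7 in the same order of groups.

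Hey1, a target of the hairy-related family, had intensities of 38 and 47.6 in HF-TACs, 45.5 and 69.7 in aHF-SCs, and 40.6 and 39.4 in qHF-SCs. The aHF-SC arrays were above both qHF-SC arrays and overlapped with HF-TACs. The log2 difference was -0.41 ± 0.23 (SE) between HF-TACs and aHF-SCs (limma adjusted p = 0.318, 95% interval -0.95 to 0.14), 0.09 ± 0.23 between HF-TACs and qHF-SCs, and 0.49 ± 0.23 between aHF-SCs and qHF-SCs (adjusted p = 0.292). Hey2, its paralog, was dim in every group, at 7.49 and 7.36 in HF-TACs, 7.91 and 7.32 in aHF-SCs, and 6.51 and 7.09 in qHF-SCs, so no fold is given for it. Of the 4 targets, Hes1 alone passed the test, in 1 comparison.

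**Figure D4:**
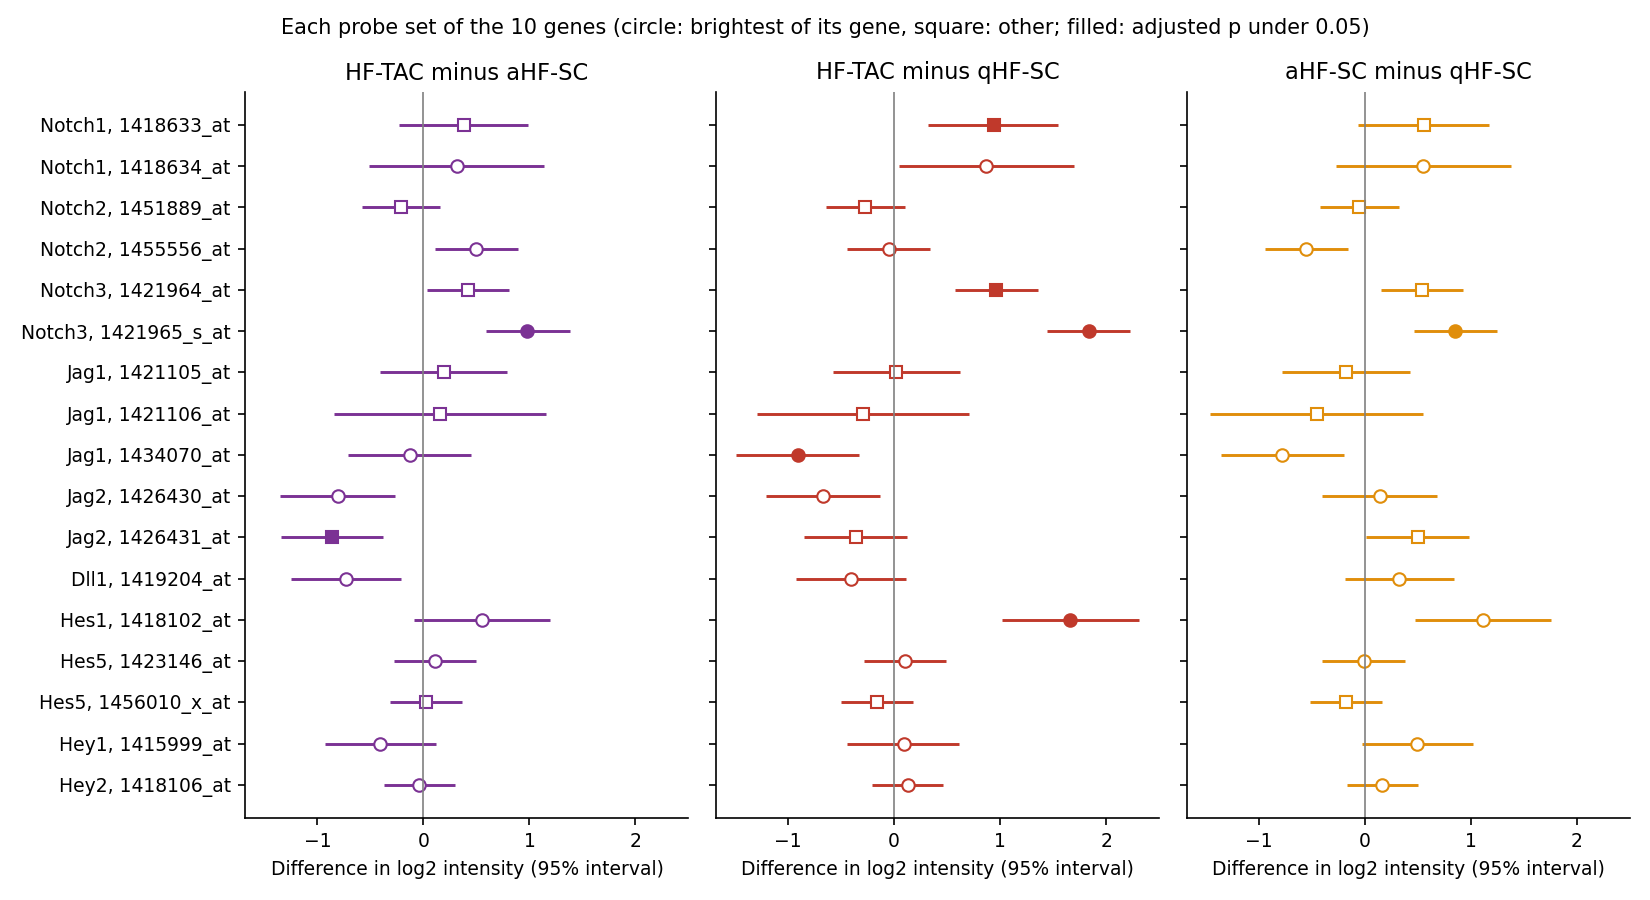
Differences in log2 intensity for each of the 17 probe sets of the 10 genes, with unadjusted 95% intervals from limma over 45037 probe sets; circles are the brightest probe set of a gene, squares the others, and filled symbols passed an adjusted p of 0.05. Both Notch3 probe sets are filled between HF-TACs and qHF-SCs (1.84 and 0.96), whereas 1 of the 3 Jag1 probe sets is (-0.91).

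Over the 17 probe sets, 1 was higher and 1 lower between HF-TACs and aHF-SCs, where 11.5% of all probe sets passed in either direction. Between HF-TACs and qHF-SCs 4 were higher and 1 was lower, against 20.1% of all probe sets, and the 4 were those of Notch1, Notch3 (both) and Hes1. Between aHF-SCs and qHF-SCs 1 was higher and 0 were lower, against 5.02% of all probe sets.

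Beyond the 10 genes, 45 of 50 further genes of the pathway were measured, and with all arrays more of them were lower than higher in HF-TACs. Against aHF-SCs, 1 was higher and 10 were lower, with a median log2 difference of -0.11. Against qHF-SCs, 3 were higher and 11 were lower, with a median of -0.12. Between aHF-SCs and qHF-SCs, 1 was higher and 1 was lower, with a median of -0.03. The count lower than in aHF-SCs was 0 without aHF-SC replicate 2, 5 without aHF-SC replicate 1, 3 without HF-TAC replicate 1, 7 without HF-TAC replicate 2 and 6 without either qHF-SC replicate. The count higher than in aHF-SCs was 3 without HF-TAC replicate 1 and 0 without either aHF-SC replicate, so the excess of lower genes in that comparison was absent without HF-TAC replicate 1 or aHF-SC replicate 2. The count lower than in qHF-SCs was 7 without either qHF-SC replicate. The count higher than in qHF-SCs was 1 without qHF-SC replicate 2. Among all genes 8.97% were higher and 8.57% lower in HF-TACs than in aHF-SCs, with a median of -0.01. Against qHF-SCs 13.4% of all genes were higher and 12.9% lower, also with a median of -0.01. Between aHF-SCs and qHF-SCs 3.07% were higher and 3.21% lower, with a median of 0. These shares are also the background for the counts by role that follow.

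Of 7 genes of the nuclear complex and corepressors, 1 was lower in HF-TACs than in aHF-SCs and 2 were lower than in qHF-SCs. Rbpj, which encodes the DNA-binding partner of the Notch intracellular part, was at 146 and 203 in HF-TACs, 348 and 412 in aHF-SCs, and 566 and 615 in qHF-SCs. Its arrays did not overlap between any groups. Rbpj was 2.20-fold lower in HF-TACs than in aHF-SCs (log2 difference -1.14 ± 0.20 SE, limma adjusted p = 0.00847) and 3.42-fold lower in HF-TACs than in qHF-SCs (-1.78 ± 0.20, adjusted p = 0.000806). The aHF-SC against qHF-SC difference was -0.64 ± 0.20 (adjusted p = 0.12), and the HF-TAC against aHF-SC difference did not pass without aHF-SC replicate 2 (-1.01, adjusted p = 0.0595).

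Of 6 other Hes and Hey family genes and feedback targets, 1 was higher and 1 was lower in HF-TACs than in qHF-SCs, and none passed in the other comparisons. The lower one was Hes6, at 245 and 235 in HF-TACs, 365 and 323 in aHF-SCs, and 398 and 500 in qHF-SCs. Its HF-TAC against qHF-SC difference was -0.89 ± 0.17 SE (limma adjusted p = 0.00781). With probe sets that can match several transcripts left out, it did not pass (-0.62, limma adjusted p = 0.0593). The difference was also smaller without qHF-SC replicate 2, at -0.73. Nrarp, a feedback inhibitor induced by Notch, was at 774 and 1240 in HF-TACs, 496 and 514 in aHF-SCs, and 293 and 179 in qHF-SCs, with no overlap between groups. It was 4.27-fold higher in HF-TACs than in qHF-SCs (log2 difference 2.09 ± 0.29 SE, limma adjusted p = 0.00196), with 0.95 ± 0.29 between HF-TACs and aHF-SCs (adjusted p = 0.0665) and 1.14 ± 0.29 between aHF-SCs and qHF-SCs (adjusted p = 0.0697). Heyl, a paralog of Hey1, was at 37.7 and 61.7 in HF-TACs, against 30.7 and 22.8 in aHF-SCs and 30.7 and 31.2 in qHF-SCs, with a difference of 0.87 ± 0.26 between HF-TACs and aHF-SCs (limma adjusted p = 0.061).

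**Figure D5:**
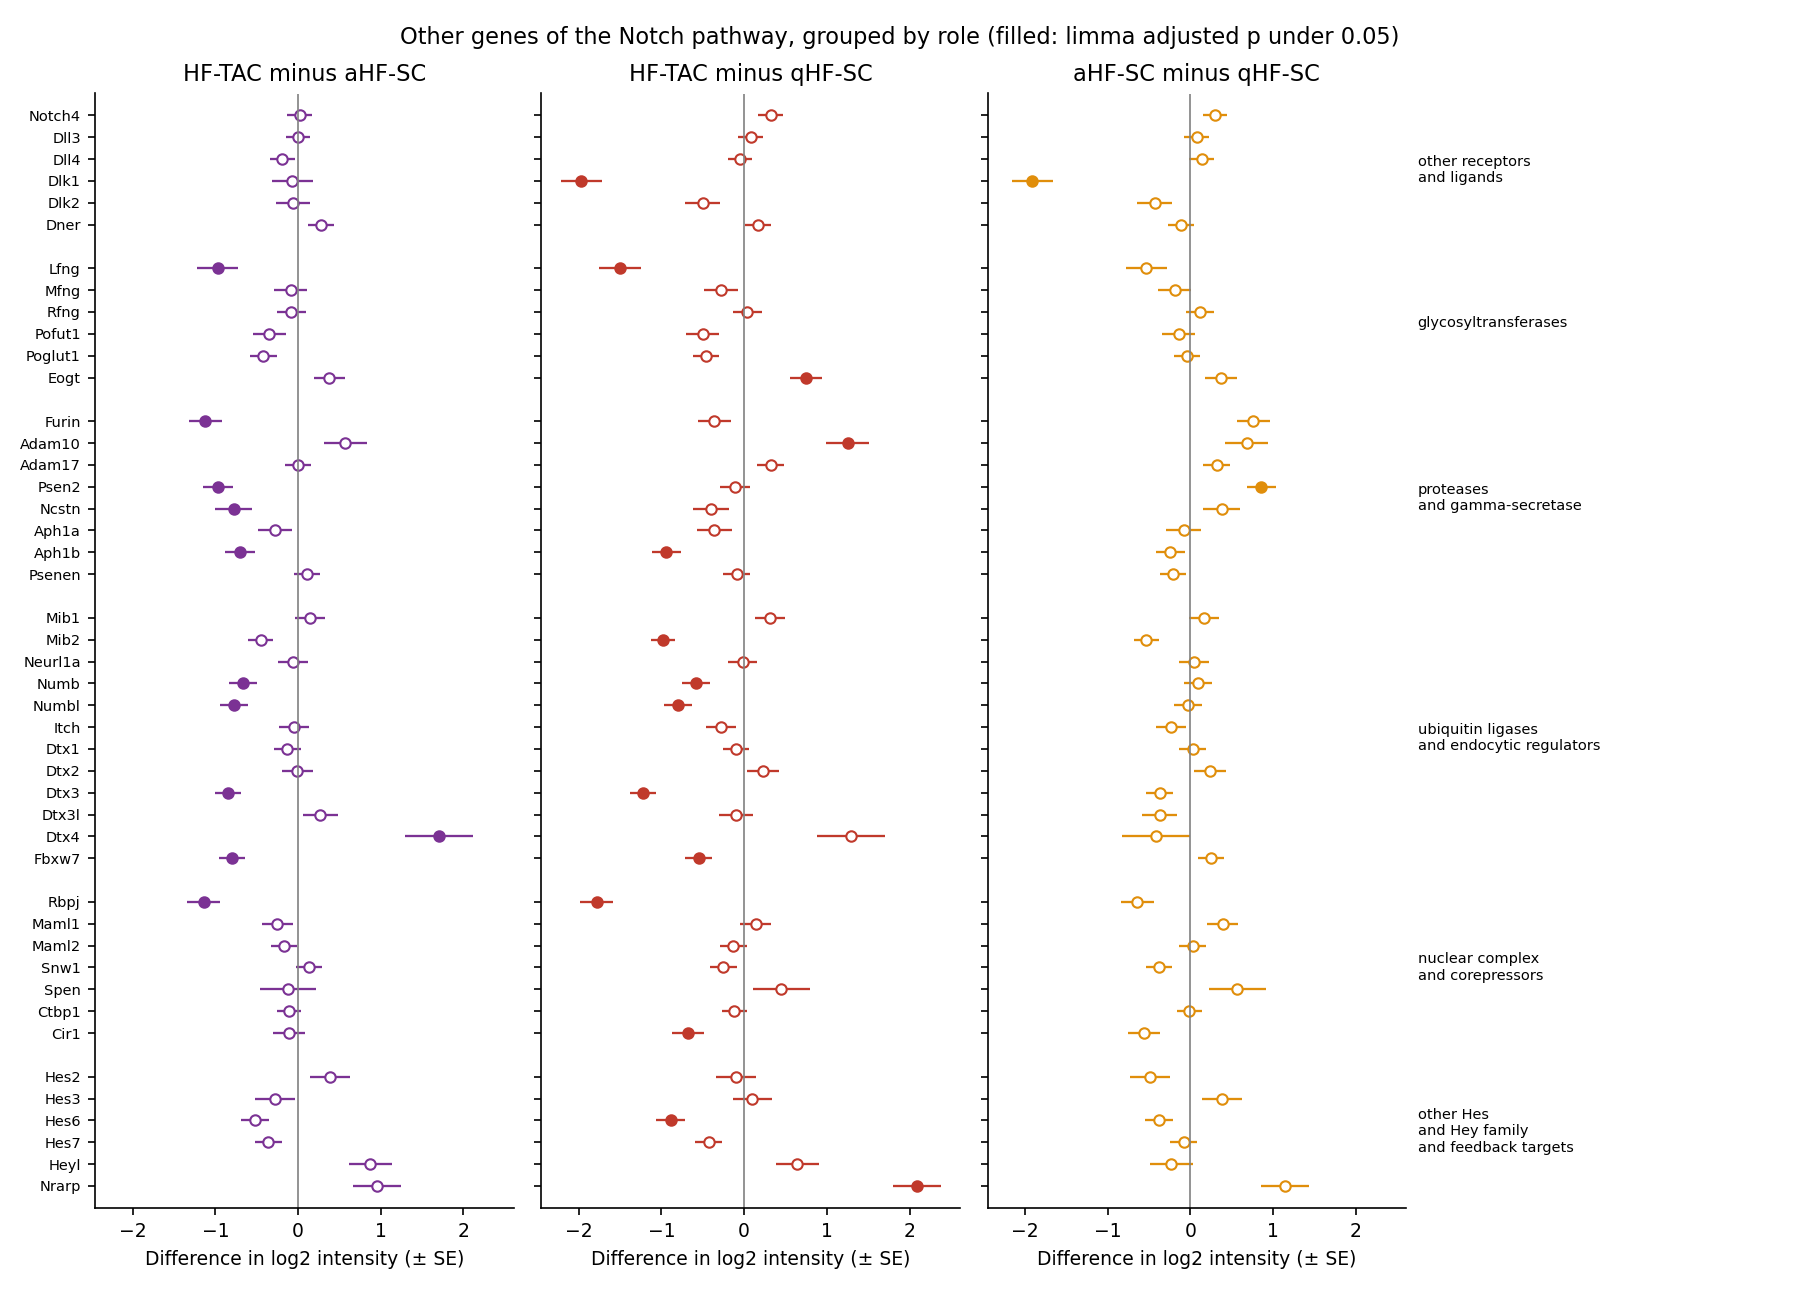
Differences in log2 intensity (± SE) of 45 other Notch pathway genes, grouped by role, in the 3 comparisons; filled points passed a limma adjusted p of 0.05. Rbpj (-1.14 and -1.78) and Lfng (-0.97 and -1.5) lie left of 0 in both HF-TAC comparisons, Nrarp stands at 2.09 between HF-TACs and qHF-SCs, and 2 points are filled between aHF-SCs and qHF-SCs.

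Of 6 glycosyltransferases that modify the receptors, 1 was lower in HF-TACs than in aHF-SCs, and 1 was higher and 1 lower than in qHF-SCs. Lfng, the Lunatic fringe enzyme that changes which ligands a receptor answers to, was at 80.5 and 131 in HF-TACs, 179 and 227 in aHF-SCs, and 306 and 277 in qHF-SCs. It was 2.84-fold lower in HF-TACs than in qHF-SCs (log2 difference -1.5 ± 0.25 SE, limma adjusted p = 0.00438) and 1.96-fold lower in HF-TACs than in aHF-SCs (-0.97 ± 0.25, adjusted p = 0.0376). The difference from aHF-SCs passed with 1 of the 6 arrays left out, HF-TAC replicate 2, and its adjusted p was between 0.0647 and 0.188 without any other array. Eogt, which adds O-linked N-acetylglucosamine to receptors, was 1.68-fold higher in HF-TACs than in qHF-SCs (0.75 ± 0.19, limma adjusted p = 0.0248), at 179 and 218 in HF-TACs, 175 and 132 in aHF-SCs, and 117 and 118 in qHF-SCs. That difference did not pass without qHF-SC replicate 1 (0.74, adjusted p = 0.105), qHF-SC replicate 2 (0.76, 0.106) or HF-TAC replicate 2 (0.61, 0.119), nor with probe sets that can match several transcripts left out (0.53, 0.245).

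Of 8 genes for proteases and gamma-secretase, 4 were lower in HF-TACs than in aHF-SCs, and 1 was higher and 1 lower than in qHF-SCs. Furin, the convertase that cleaves receptors during their maturation, was at 231 and 240 in HF-TACs, 450 and 582 in aHF-SCs, and 351 and 261 in qHF-SCs. It was 2.17-fold lower in HF-TACs than in aHF-SCs (log2 difference -1.12 ± 0.20 SE, limma adjusted p = 0.00988). Psen2, a catalytic subunit of gamma-secretase, was at 82.6 and 85.3 in HF-TACs, 142 and 191 in aHF-SCs, and 89.4 and 92.2 in qHF-SCs, so the aHF-SC arrays alone were high. It was 1.96-fold lower in HF-TACs than in aHF-SCs (-0.97 ± 0.18, limma adjusted p = 0.0104) and 1.82-fold higher in aHF-SCs than in qHF-SCs (0.86 ± 0.18, adjusted p = 0.0383). Without aHF-SC replicate 2 neither HF-TAC against aHF-SC difference passed (Furin -0.93, limma adjusted p = 0.0655; Psen2 -0.76, 0.0577), and the Psen2 difference between aHF-SCs and qHF-SCs did not pass without any 1 of the aHF-SC and qHF-SC arrays (adjusted p of 0.0549 to 0.184).

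Adam10, the protease of the ligand-dependent cut, was at 814 and 1130 in HF-TACs, 711 and 586 in aHF-SCs, and 507 and 321 in qHF-SCs. It was 2.38-fold higher in HF-TACs than in qHF-SCs (log2 difference 1.25 ± 0.26 SE, limma adjusted p = 0.0119), which did not pass without qHF-SC replicate 2 (0.92, adjusted p = 0.0701) or HF-TAC replicate 2 (1.01, 0.062).

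Of 12 ubiquitin ligases and endocytic regulators, 1 was higher and 4 were lower in HF-TACs than in aHF-SCs, and 5 were lower than in qHF-SCs. Dtx3, a Deltex family ligase, was at 139 and 155 in HF-TACs, 241 and 292 in aHF-SCs, and 334 and 351 in qHF-SCs. It was 2.33-fold lower in HF-TACs than in qHF-SCs (log2 difference -1.22 ± 0.16 SE, limma adjusted p = 0.00165). Dtx4, of the same family, was at 212 and 80.5 in HF-TACs, 39.8 and 40.9 in aHF-SCs, and 47 and 61.1 in qHF-SCs, with its HF-TAC arrays far apart but above all others. It was 3.24-fold higher in HF-TACs than in aHF-SCs (1.70 ± 0.41, limma adjusted p = 0.0286), and this did not pass without aHF-SC replicate 1 (1.68, adjusted p = 0.105) or aHF-SC replicate 2 (1.72, 0.116). The Dtx4 difference from aHF-SCs also did not pass with the mean of its probe sets (1.17, limma adjusted p = 0.0758) or with log2(intensity + 16) (1.4, 0.0896). Numb, an endocytic inhibitor of Notch, and its paralog Numbl were lower in HF-TACs than in aHF-SCs (-0.67 and -0.77) and than in qHF-SCs (-0.58 and -0.80), with limma adjusted p of 0.0336, 0.019, 0.0401 and 0.0111 in the same order. Numb passed with 1 of the 6 arrays left out in either comparison, and Numbl with 3 against aHF-SCs and 5 against qHF-SCs. With the mean of its probe sets Numb passed in neither (-0.48, limma adjusted p = 0.134, and -0.34, 0.25). Mib2, a ligase that acts on ligands, was at 89 and 95.1 in HF-TACs, 118 and 135 in aHF-SCs, and 185 and 178 in qHF-SCs. It was 1.97-fold lower in HF-TACs than in qHF-SCs (-0.98 ± 0.15, limma adjusted p = 0.00308). Its only probe set is of a kind that can match several transcripts, so Mib2 had no value with such probe sets left out.

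Of 6 other receptors and ligands, 1 was lower in HF-TACs and in aHF-SCs than in qHF-SCs. Dlk1, a non-canonical ligand, was at 16.8 and 15.2 in HF-TACs and 14.9 and 18.8 in aHF-SCs, near the dim level, against 49.3 and 80.1 in qHF-SCs. It passed between HF-TACs and qHF-SCs (limma adjusted p = 0.00129) and between aHF-SCs and qHF-SCs (adjusted p = 0.0102), and no fold is given because the lower levels are at the dim level. The probe set is of a kind that can match several transcripts, and with such probe sets left out Dlk1 passed in neither comparison (limma adjusted p = 0.477 and 0.77). The aHF-SC against qHF-SC difference also did not pass without qHF-SC replicate 2 (adjusted p = 0.0549) or aHF-SC replicate 1 (0.0602).

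Only Notch3 and Hes1 of the 10 genes had group means 1 or more apart on the log2 scale (1.84 and 1.66). The genes whose log2 intensity was most like that of Notch3 over the 6 arrays, among 3509 genes with group means at least 1 apart, were Lzts1 (Pearson r = 0.9984), the mitotic kinase gene Aurkb (0.9983) and the replication helicase gene Mcm5 (0.998), and 51 genes had an r over 0.99. For Hes1 they were Tes (0.9955), Wipi1 (0.9951) and Prss12 (0.994), and 6 genes had an r over 0.99. These are descriptions of 6 arrays in 3 groups, which share arrays, normalization and the group differences, and no test was made of them.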

How the data were processed

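RNA of 3 sorted cell groups was hybridised to 6 Affymetrix arrays (Trizol total RNA, 2 ug, biotin-labelled cRNA, per the labels' protocols). The deposited values are linear intensities per probe set, without negative values. RMA is named in the submitters' processing notes; its version and all other settings were not given in the sources used here. Symbols came from the platform annotation: 34945 probe sets had 1 symbol, 932 several and 9160 none, and 64 controls were left out. Each gene was represented by its probe set with the highest mean, log2 intensity was fitted by group with limma 3.58.1 in R 4.3.3 on all 6 arrays (empirical Bayes, 3 residual degrees of freedom), and p-values were adjusted by Benjamini-Hochberg over 18193 genes per comparison; a second fit covered 45037 probe sets. Fold changes are 2 to the power of the log2 difference. The code was tested on simulated data. The 10 genes and all lists were chosen with earlier results of these data known. All 10 are named; of the other pathway genes, up to 4 per comparison and direction are named, those that passed and changed most, and also the 2 lowest p-values if under 2 passed. Numb, Numbl and Hes6 were named after their values were seen. Pathway genes without a value and the promoters of Hes1 and Hey1 were not used here. Alternatives changed the probe set rule, scaling, filter, offset, weights, prior, samples and replicate block.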

Additional observations from a re-analysis of the deposited data

How the results depend on the processing

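With each array left out in turn, 153 of 180 differences of the 10 genes kept their direction and their side of the threshold, and with the other settings 317 of 337 did. Most of these differences had not passed with all arrays and count as kept if they stayed so, and some left out an array of the group not compared. The counts thus say little of the differences that had passed. Notch3 and Hes1 between HF-TACs and qHF-SCs passed in all of these settings. With the other settings, Notch3 passed in 10 of 11 between HF-TACs and aHF-SCs and in 8 of 11 between aHF-SCs and qHF-SCs. Jag1 between HF-TACs and qHF-SCs passed in 9 of 12. Their results with an array left out are given above. With an array left out, the HF-TAC against aHF-SC difference of Notch1 ran between -0.30 and 0.94, that of Jag1 between -0.52 and 0.26, that of Hes5 between -0.04 and 0.27 and that of Hey2 between -0.09 and 0.02; the HF-TAC against qHF-SC difference of Notch2 ran between -0.13 and 0.04 and that of Hey1 between -0.07 and 0.25; and the aHF-SC against qHF-SC difference of Jag2 ran between -0.22 and 0.50 and that of Hes5 between -0.16 and 0.14, also 0.04. With the mean of the probe sets, Jag1 was 0.07 between HF-TACs and aHF-SCs and Hes5 was -0.03 between HF-TACs and qHF-SCs. None of these turned differences passed the test. The causes were not tested.

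The number of the 10 genes that passed, with an array left out, was 0 to 2 higher and 0 to 1 lower between HF-TACs and aHF-SCs, 2 to 3 higher and 0 to 1 lower between HF-TACs and qHF-SCs, and 0 to 1 in each direction between aHF-SCs and qHF-SCs. For the 17 probe sets it was 0 to 2 in each direction, 3 to 5 higher and 0 to 1 lower, and 0 to 1 in each direction, and for the other pathway genes 0 to 3 higher and 0 to 7 lower, 1 to 4 higher and 7 to 9 lower, and 0 to 2 higher and 0 to 1 lower, in the same order of comparisons. Without probe sets that can match several transcripts (IDs ending in _s_at or _x_at), 0 of the 10 genes and 0 of their probe sets were higher between HF-TACs and aHF-SCs and between aHF-SCs and qHF-SCs, and 0 other pathway genes were lower in the last. The mean of the probe sets gave 1 of the 10 genes lower and 2 other pathway genes higher between HF-TACs and aHF-SCs, and 0 lower and 5 higher between HF-TACs and qHF-SCs. Quantile normalization gave 1 of the 10 genes and 2 probe sets lower between HF-TACs and aHF-SCs, 2 genes lower between HF-TACs and qHF-SCs, and 2 probe sets higher between aHF-SCs and qHF-SCs. Scaling to the 75th percentile gave 2 genes lower, 2 probe sets lower and 3 other pathway genes higher between HF-TACs and aHF-SCs, 2 genes and 2 probe sets lower between HF-TACs and qHF-SCs, and 2 genes, 2 probe sets and 2 other pathway genes higher between aHF-SCs and qHF-SCs. Centring on the median gave 0 probe sets lower between HF-TACs and qHF-SCs. With log2(intensity + 16), 0 other pathway genes were higher and 0 probe sets lower between HF-TACs and aHF-SCs, 0 genes and 0 probe sets lower between HF-TACs and qHF-SCs, and 0 genes, 0 probe sets and 0 other pathway genes higher between aHF-SCs and qHF-SCs. An intensity trend with a robust prior gave 1 gene lower and 2 other pathway genes higher between HF-TACs and aHF-SCs, and 2 genes, 2 probe sets and 2 other pathway genes higher between aHF-SCs and qHF-SCs. With 2 groups in the fit, 6 other pathway genes and 0 probe sets were lower between HF-TACs and aHF-SCs, and 1 gene and 1 probe set lower and 2 other pathway genes higher between aHF-SCs and qHF-SCs.

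Same-numbered arrays did not deviate together (correlations of 0.084 between HF-TACs and aHF-SCs, -0.127 between HF-TACs and qHF-SCs and 0.061 between aHF-SCs and qHF-SCs over 18193 genes), so the numbers were not taken to pair samples. With the replicate block, 0 of the 10 genes (Notch3, limma adjusted p = 0.0565) and 0 other pathway genes (Psen2, 0.0508) were higher between aHF-SCs and qHF-SCs. Crossing the numbers of the qHF-SC arrays, an alternative chosen after seeing the data, gave 2 genes higher and 1 lower between HF-TACs and qHF-SCs.

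Over all genes, 558 were higher and 584 lower between aHF-SCs and qHF-SCs, against 215 and 333 with log2(intensity + 16) and 54 and 70 without qHF-SC replicate 2. Scaling moved the median of all genes by at most 0.03. Values under the dim level of 16.3 (Hey2 and the second Hes5 probe set) limit what can be said of those features. The brighter Hes5 probe set (24 to 30.7) and the second Notch3 probe set (18.8 to 43.9) lay under 56.1, the highest 90th percentile of the list not expected in skin. The second Notch2 probe set (32.1 to 43.8) and Heyl in both stem cell groups (22.8 to 31.2) did so too. Hey1 did so apart from aHF-SC replicate 2 (69.7). Detection of these is therefore uncertain as well.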
